A study of Homo sapiens with 6 samples.

Results

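The genes described here encode 10 proteins that silence transposable elements and other repeated DNA: TASOR, MPHOSPH8, PPHLN1, MORC2, ATF7IP, SETDB1, TRIM28, SUV39H1, SUV39H2 and CBX3. They were chosen by symbol, not by any measured value, although earlier results of these data were known. They make up 10 of the 62260 gene rows of the deposited tables. RNA came from untreated cells of the human ovarian cancer line TYK-nu in 2 groups, wild type (WT) and ZNFX1 knockout (ZNFX1 KO), with 3 libraries each, all with the same batch label. ZNFX1 is a helicase with zinc fingers that has a part in the antiviral sensing of RNA. The labels call the libraries biological replicates and name no knockout clone, guide or exon, so the p-values below measure the spread between these libraries, and ZNFX1 loss cannot be told apart from anything else that separates the KO cultures from WT. The question of the comparison is whether RNA of the silencing machinery differed between ZNFX1 KO and WT.

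As background, heterochromatin on transposable elements carries trimethylated lysine 9 of histone H3 (H3K9me3). The HUSH complex, built of TASOR, MPHOSPH8 and PPHLN1, binds that mark and silences long retroelements such as LINE-1, with the ATPase MORC2 as an effector. KRAB zinc finger proteins bring in TRIM28 (KAP1), which recruits the methyltransferase SETDB1, held stable in the nucleus by its partner ATF7IP. SUV39H1 and SUV39H2 are the other main enzymes that trimethylate H3K9, and CBX3 is HP1 gamma, a reader of the mark. Loss of these factors is known to raise retroelement RNA, which RNA sensors of the antiviral response can detect.

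In these cells 0 of the 10 genes passed the threshold, an adjusted p of 0.05 by edgeR's quasi-likelihood test, against 0.727% of the 14166 genes tested. The unadjusted p was under 0.05 for 0 of the 10, against 15.1% of all genes, and DESeq2's Wald test called 0 of the 10, against 4.09%. All 10 passed the filter on low counts. The log2 fold change of ZNFX1 KO over WT was positive in 10 of 10, with a median of 0.25, where the median over all genes tested was -0.01 and 48.8% of genes had a positive value. Without the library WT 2 the value was positive in 9 of 10, with a median of 0.18. Without WT 3 it was also positive in 9 of 10, with a median of 0.38. With all libraries, every one of the 10 intervals at 95% spanned 0. All 10 excluded a 2-fold fall and 7 excluded a 2-fold rise, the exceptions being PPHLN1, SUV39H1 and SUV39H2. Without WT 2, all 10 excluded both. This depended on the library left out. The intervals of PPHLN1, SUV39H1, SUV39H2 and CBX3 did not exclude a 2-fold rise without WT 3. In that setting the intervals of PPHLN1 and CBX3 lay above 0, and of these genes PPHLN1 passed the threshold and CBX3 did not. In bulk RNA, a change in the share of cells and a change in RNA per cell cannot be told apart.

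**Figure D1:**
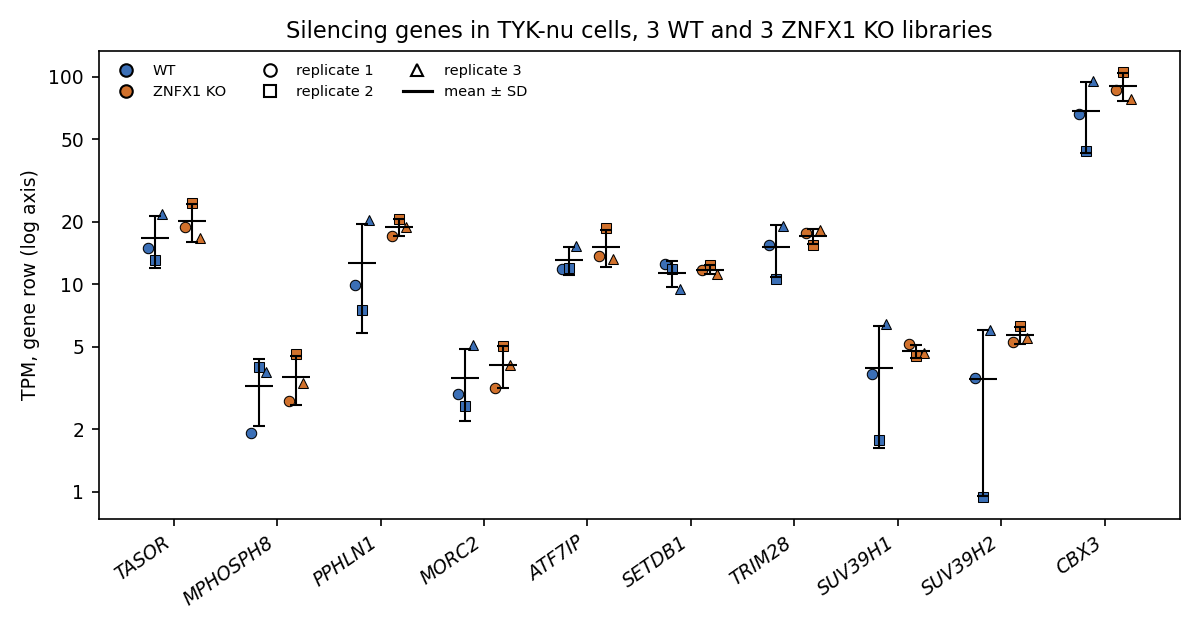
Level of each gene in TPM, a measure per transcript length, from its gene row, on a log axis, with 1 symbol per library (blue WT, orange ZNFX1 KO, shape for the replicate) and the mean and SD of 3 libraries as black bars. CBX3 stood above the other genes in every library. The groups overlapped for all 10 genes on this scale. Of all genes tested, 5.00% had every KO library higher in TPM and 12.0% had every KO library lower. The blue square of WT 2 was the lowest symbol for 7 of 10, and WT 2 was lowest for 31.2% of all genes tested.

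The libraries held between 21413002 and 23494771 assigned fragments, and CPM below means TMM-scaled counts of gene rows relative to library size. ZNFX1 itself was at 130, 208 and 109 CPM in WT 1, 2 and 3 and at 103, 70.5 and 75.2 CPM in KO 1, 2 and 3, so that no KO library reached the lowest WT library, as in 10.8% of all genes. Its log2 fold change was -0.85 (SE of 0.27, edgeR adjusted p = 0.218, exact two-sided permutation p = 0.1, the smallest that 3 against 3 libraries can give). Over all genes tested, the WT libraries with the least different counts were WT 1 and WT 2 (37.4 in chi-square per degree of freedom). WT 3 was at 70.2 from WT 1, 128 from WT 2 and 55.4, 73.5 and 56.6 from KO 1, 2 and 3. WT 2 was at 123, 185 and 130 from KO 1, 2 and 3. In lists used as a reference, WT 2 stood apart from the other libraries. Of 36 cell cycle genes 35 were lowest in WT 2, with a summed level of 1740 CPM there against 3484 in WT 1, 5630 in WT 3 and 5482 to 5712 in the KO. Of 31 tested interferon-stimulated genes, 31 were highest in WT 2 (summed 5559 CPM, against 1600 and 1957 in the other WT and 1189 to 1817 in the KO). Among 12 markers of ovarian carcinoma, MUC16 and FOLR1 were at 0 in all libraries, and PAX8 and CDH1 did not exceed 0.0522 CPM in any library. KRT18 was at 103 ± 18.1 CPM and KRT8 at 24.4 ± 12.9 CPM in WT (SD, n = 3). The gene named WT1 was at 5.24 ± 1.63 CPM in WT libraries and 5.82 ± 1.15 CPM in KO libraries. The 12 endothelial-type markers were uneven: TIE1 was at 510.5, CDH5 at 470 and PECAM1 at 391 CPM in WT on average, while VWF was at 11.6, EMCN at 0.550 and CLDN5 at 0. The list had a summed level of 1640 to 1948 CPM in WT libraries and 1835 to 2094 CPM in KO libraries. Of the 15 leukocyte markers 8 were at 0 in all libraries, PTPRC among them. Of the other leukocyte genes CD68 and ITGAX were expressed (335 and 48.7 CPM in WT on average), and that list summed to 226 to 567 CPM in WT libraries and 186 to 300.3 CPM in KO libraries. Of 10 fibroblast markers only THY1 passed the filter on low counts. The part of any other cell type in the results was not tested.

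TASOR, the scaffold of HUSH (ENSG00000163946.14, FAM208A in GENCODE 29, chromosome 3, 56620133 to 56683237, minus strand, GRCh38), was at 162, 137 and 177 CPM in WT 1, 2 and 3 and at 199, 212 and 160 CPM in KO 1, 2 and 3. The lowest library was WT 2, and KO 3 lay below WT 1 and WT 3, so the groups overlapped. Its log2 fold change was 0.26 (SE of 0.18, 95% interval -0.15 to 0.68, edgeR adjusted p = 0.511), 0.17 without WT 2 and 0.37 without WT 3. MPHOSPH8, the chromodomain subunit that binds H3K9me3 (ENSG00000196199.14, chromosome 13, 19633681 to 19673459, plus strand), was at 13.4, 27.6 and 20.5 CPM in WT libraries and 18.9, 26.0 and 21.5 CPM in KO libraries. It was the one gene of the 10 that was highest in WT 2, and its lowest library was WT 1. Its log2 fold change of 0.11 (SE of 0.27, interval -0.51 to 0.73, edgeR adjusted p = 0.868) was -0.12 without WT 1, -0.0045 without KO 2 and 0.39 without WT 2.

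PPHLN1, the periphilin subunit (ENSG00000134283.18, chromosome 12, 42238447 to 42459715, plus strand), had the narrowest KO group of the HUSH genes. It was at 23.4 and 19.5 CPM in WT 1 and WT 2 but at 40.4 CPM in WT 3, and the KO libraries were at 41.3, 41.7 and 40.2 CPM. WT 3 thus stood among the KO libraries, between KO 3 and KO 1, while WT 1 and WT 2 lay far below. It had a log2 fold change of 0.56 (SE of 0.27, interval -0.04 to 1.17), which is a 1.48-fold difference and did not pass (edgeR adjusted p = 0.358). Without WT 3 it was 0.96 and passed (edgeR adjusted p = 0.0238), the 1 call among the 10 in that setting, where 9.02% of all genes were called. Without WT 2 it was 0.36 (edgeR adjusted p = 0.738). PPHLN1 shares 14041 bases with ZCRB1 on the other strand, which was at 38.7 CPM on average, and no source used here says if the counting was stranded. MORC2, the ATPase that compacts HUSH-bound chromatin (ENSG00000133422.14, chromosome 22, 30925130 to 30968298, minus strand), was at 26.4, 23.3 and 34.9 CPM in WT libraries and 27.5, 35.6 and 33.7 CPM in KO libraries, with a log2 fold change of 0.19 (SE of 0.21, edgeR adjusted p = 0.663). Again WT 3 fell within the KO range and WT 2 was lowest. The MORC2 value was 0.08 without WT 2 and 0.40 without WT 3.

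ATF7IP, the partner that protects SETDB1 (ENSG00000171681.13, chromosome 12, 14365632 to 14502935, plus strand), was at 129, 123 and 123 CPM in WT libraries and at 147, 170 and 126 CPM in KO libraries. The WT libraries lay within a few CPM of each other, and KO 3 fell between them. ZNFX1 KO over WT gave a log2 fold change of 0.24 (SE of 0.17, interval -0.14 to 0.62, edgeR adjusted p = 0.514), and 0.14 without KO 2. SETDB1, the H3K9 methyltransferase (ENSG00000143379.13, chromosome 1, 150926263 to 150964744, plus strand), had the value closest to 0 of the 10 genes. It was at 74.5, 63.6 and 42.5 CPM in WT libraries and 68.4, 59.0 and 58.1 CPM in KO libraries, so that the highest and the lowest library were both WT. The log2 fold change was 0.04 (SE of 0.22, interval -0.46 to 0.54, edgeR adjusted p = 0.946), which was -0.02 with library totals in place of TMM and -0.14 without WT 3. SETDB1 shares 4162 bases with CERS2 on the other strand, and the libraries were stranded but no source used here says if the counting was.

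TRIM28, the corepressor of KRAB zinc finger proteins (ENSG00000130726.12, chromosome 19, 58544091 to 58550722, plus strand), was at 68.3, 46.6 and 64.7 CPM in WT libraries and 76.3, 54.5 and 74.1 CPM in KO libraries. WT 2 was lowest and KO 2 next, and the groups overlapped (log2 fold change 0.19, SE of 0.21, interval -0.29 to 0.67, edgeR adjusted p = 0.677). Without WT 2 the value was 0.04, and without WT 3 it was 0.27. These gene-row values hold only a minor part of the gene. The deposited files list 134909 transcripts outside the gene rows, and 13 of them belong to TRIM28 by GENCODE 29. That release linked 103521 of the 134909 to a gene, so any unlinked TRIM28 row is not counted here. The 13 rows held 74.4% of the TRIM28 fragments counted. The gene row held 31.4%, 25.5% and 24.6% in WT 1, 2 and 3 and 24.4%, 23.9% and 25.2% in KO 1, 2 and 3.

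The largest TRIM28 transcript row was TRIM28-207, a protein-coding model outside the basic set, with 39.6% of the fragments of the gene. TRIM28-204, another protein-coding model, held 16.7%. The 9 models annotated as retained introns together held between 14.9% (WT 1) and 18.5% (KO 2). In 1 fit over gene and transcript rows, where 0.00544% of 36792 rows were called, TRIM28-204 had a log2 fold change of 0.59 (SE of 0.18, edgeR adjusted p = 0.496) and TRIM28-207 of 0.34 (SE of 0.21, edgeR adjusted p = 0.752). With its linked rows joined, TRIM28 had 4259, 3613 and 5770 fragments in WT and 6451, 4526 and 5634 in the KO. WT 3 was then the second highest library, and WT 2 was the lowest. The joined log2 fold change was 0.34 (SE of 0.20, edgeR adjusted p = 0.414) and 0.22 without WT 2. The former comes from a fit that called 1.27% of all genes and 0 of the 10.

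**Figure D2:**
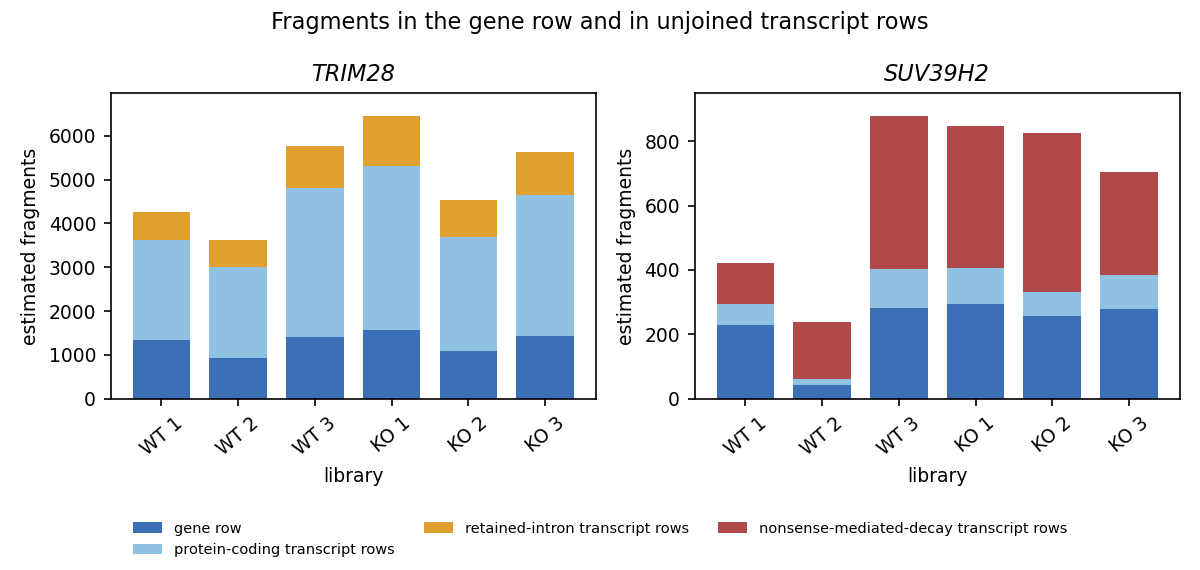
Estimated fragments of TRIM28 (left) and SUV39H2 (right) in each library, stacked by the deposited row they were listed in: the gene row, or transcript rows by their GENCODE 29 type. The gene row held 23.9% to 31.4% of TRIM28 and 17.5% to 54.0% of SUV39H2.

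SUV39H1 and SUV39H2, the paired H3K9 methylating enzymes of pericentromeric heterochromatin, varied most among libraries. SUV39H1 (ENSG00000101945.17, chromosome X, 48695554 to 48709012, plus strand) was at 16.3, 7.84 and 21.9 CPM in WT libraries and 22.3, 15.9 and 18.9 CPM in KO libraries. WT 2 stood alone at the bottom, and WT 1 and WT 3 lay within the KO range. The log2 fold change was 0.31 (SE of 0.34, interval -0.47 to 1.09, edgeR adjusted p = 0.678), and without WT 2 it was -0.0048 (SE of 0.24, interval -0.54 to 0.53). Without WT 3 it was 0.67 (SE of 0.32, interval -0.07 to 1.42, edgeR adjusted p = 0.205).

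SUV39H2 (ENSG00000152455.16, chromosome 10, 14878820 to 14904315, plus strand) was at 11.6, 2.12 and 12.9 CPM in WT libraries and 14.3, 13.004 and 14.5 CPM in KO libraries. It was the only one of the 10 genes whose KO libraries all lay above every WT library in CPM, a pattern held by 9.39% of all genes tested. The gap between WT 3 and KO 2 was small, and in TPM the groups overlapped for all 10 genes. On that scale 5.00% of all genes had every KO library higher and 12.0% had every KO library lower. Its log2 fold change, the largest of the 10, was 0.65 (SE of 0.52, interval -0.54 to 1.83, edgeR adjusted p = 0.566). Without WT 2 it was 0.18 (SE of 0.21, interval -0.29 to 0.66). Without WT 3 it was 1.03 (SE of 0.57, interval -0.28 to 2.34, edgeR adjusted p = 0.266). WT 2 held 41.6 SUV39H2 fragments in the gene row, the fewest of any gene and library in the set.

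Transcript rows changed the picture of SUV39H2 in WT 2. Over all libraries 64.7% of its fragments were in 5 transcript rows, most of them in SUV39H2-205, a model annotated for nonsense-mediated decay. That row held 74.2% of the fragments in WT 2, 30.6% in WT 1, 54.0% in WT 3 and 45.2% to 59.6% in the KO. With rows joined, SUV39H2 had 422, 238 and 878 fragments in WT and 847, 824 and 704 in the KO. WT 2 was still lowest, but at 3.69-fold under the highest library in fragments instead of 7.07-fold in the gene row. WT 3 was now the highest library, so the groups overlapped. The joined log2 fold change was 0.70 (SE of 0.37, edgeR adjusted p = 0.366) and, without WT 2, 0.37 (edgeR adjusted p = 0.709). The split between rows is an estimate by Salmon, whose uncertainty the files do not carry, and SUV39H2 overlaps DCLRE1C on the other strand by 6957 bases.

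CBX3, the HP1 gamma reader (ENSG00000122565.19, chromosome 7, 26201162 to 26213356, plus strand), was at 215, 141 and 239 CPM in WT libraries and 275, 272 and 232 CPM in KO libraries. WT 2 was far below the others, and KO 3 lay under WT 3. The log2 fold change was 0.39 (SE of 0.22, interval -0.11 to 0.89, edgeR adjusted p = 0.428) and 0.19 without WT 2. CBX3 has 10 pseudogene rows named after it, whose reads came to 0.166% of those of CBX3, although reads of near-identical copies can be assigned either way.

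**Figure D3:**
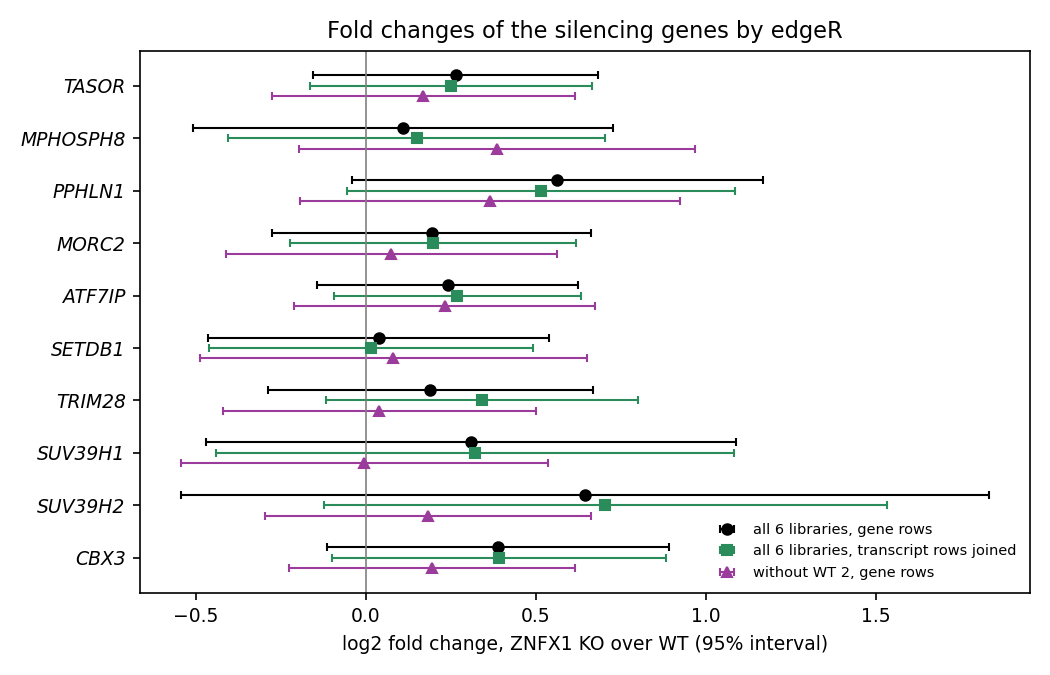
Log2 fold change of ZNFX1 KO over WT with its 95% interval by edgeR, for gene rows in all 6 libraries (black circles), with transcript rows joined (green squares) and without WT 2 (purple triangles). Every interval crosses 0, and leaving out WT 2 brought SUV39H2 from 0.65 to 0.18 and SUV39H1 from 0.31 to -0.0048.

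WT 2 was the lowest library for 7 of the 10 genes in CPM, where it was lowest for 26.9% of all genes tested. Relative to the mean of the 6 libraries, the mean log2 CPM of the 10 was -0.08, -0.54 and 0.08 for WT 1, 2 and 3 and 0.21, 0.19 and 0.13 for KO 1, 2 and 3. WT 3 was thus closer to KO 3 than to WT 2. The depth of the drop in WT 2 differed by gene, from -2.15 for SUV39H2, -1.05 for SUV39H1, -0.75 for PPHLN1 and -0.67 for CBX3 to -0.13 for ATF7IP, 0.08 for SETDB1 and 0.41 for MPHOSPH8. For the cell cycle list the median was -1.30 in WT 2, against -0.27 in WT 1, 0.39 in WT 3 and 0.34 to 0.44 in KO libraries. The log2 fold change of ZNFX1 KO over WT was positive in 36 of 36 genes of that list, with a median of 0.62. Without WT 2 it was positive in 34 of 36, with a median of 0.29. The part of proliferation in the values of the silencing genes was not tested.

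**Figure D4:**
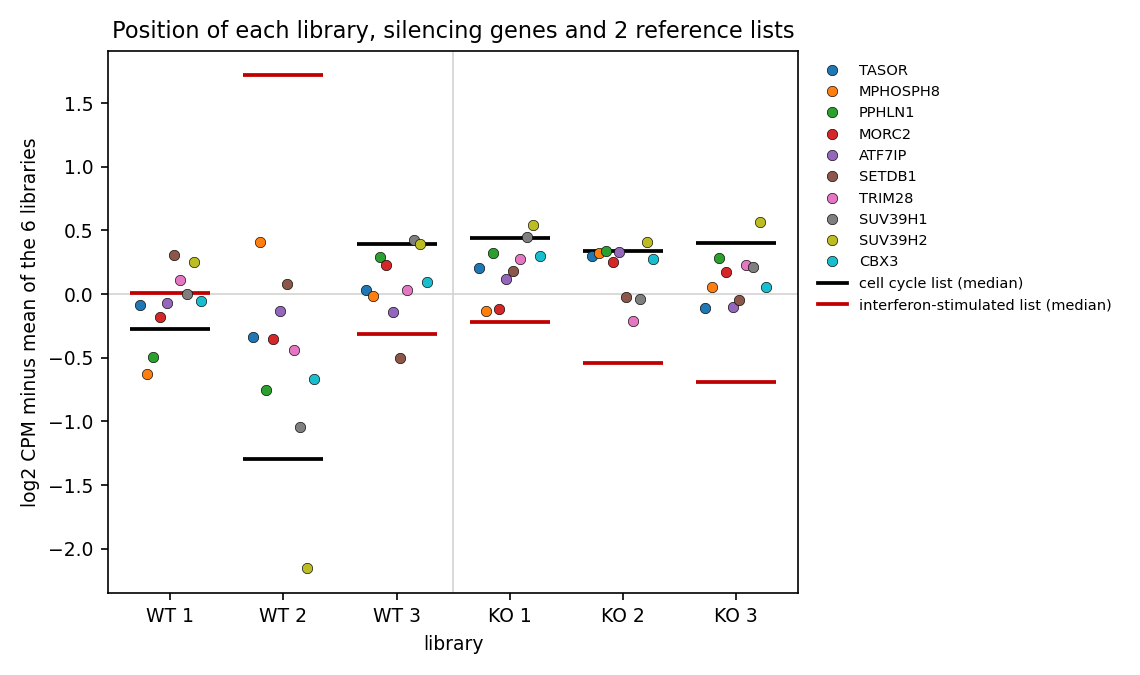
Log2 CPM of each gene minus its mean over the 6 libraries (dots, spread sideways for legibility), with the medians of the cell cycle list (black bars) and the interferon-stimulated list (red bars). In WT 2 the dots spread from -2.15 to 0.41 while the cell cycle bar is at -1.30 and the interferon bar at 1.72.

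SUV39H2, SUV39H1 and CBX3 were among the 4 genes furthest below their mean in WT 2, and their promoter windows are shown so that the start sites can be compared. Of the 2 windows of SUV39H1 the one at the annotated gene start is shown. The windows of the other gene, PPHLN1, begin at 42325917 and 42331548, far from its annotated start at 42238447, and are not printed. Each is 300 bases long, from upstream of a RefSeq start (GRCh38.p14) into the first 50 transcribed bases, 5′ to 3′ along the gene, with the motif words found in capitals. The windows are chrX:48695304-48695603 (plus strand) for SUV39H1, chr10:14878616-14878915 (plus strand) for SUV39H2 and chr7:26201193-26201492 (plus strand) for CBX3.
SUV39H1: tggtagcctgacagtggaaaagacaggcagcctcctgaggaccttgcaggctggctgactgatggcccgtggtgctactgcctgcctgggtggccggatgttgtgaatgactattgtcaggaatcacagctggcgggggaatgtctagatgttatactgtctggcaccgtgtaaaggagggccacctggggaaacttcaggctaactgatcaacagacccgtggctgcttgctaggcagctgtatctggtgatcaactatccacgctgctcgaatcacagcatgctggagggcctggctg
SUV39H2: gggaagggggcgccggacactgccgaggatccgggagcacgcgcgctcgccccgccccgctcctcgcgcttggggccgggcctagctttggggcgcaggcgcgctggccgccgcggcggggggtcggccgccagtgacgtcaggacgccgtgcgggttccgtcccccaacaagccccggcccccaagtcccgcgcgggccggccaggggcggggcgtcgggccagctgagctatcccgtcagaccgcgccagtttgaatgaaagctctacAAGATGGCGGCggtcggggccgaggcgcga
CBX3: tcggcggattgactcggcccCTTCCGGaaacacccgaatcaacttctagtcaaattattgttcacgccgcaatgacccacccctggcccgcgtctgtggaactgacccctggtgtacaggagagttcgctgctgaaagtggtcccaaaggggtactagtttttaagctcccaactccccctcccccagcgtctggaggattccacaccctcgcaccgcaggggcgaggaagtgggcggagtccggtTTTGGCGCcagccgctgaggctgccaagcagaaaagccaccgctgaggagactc

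The words searched on both strands were TTTCCCGC, TTTGGCGC, TTTGCCGC and TTTCGCGC for E2F, CCAAT for the CCAAT box, CCGGAAG for ETS, and a longer word each for NRF1 and YY1. The NRF1 word was in 0 of the genes' windows and in 1.24% of all windows. CBX3 held the E2F word TTTGGCGC across its start, which made it the 1 gene with an E2F word among the 9 of the 10 that have windows, and 3.31% of 35116 windows held such a word. It also held an ETS word, found in 10.3% of windows. SUV39H2 held the YY1 word in its first transcribed bases, found in 0.849% of windows, and the printed window of SUV39H1 held 0 of the words. Its other window held a CCAAT box, found in 34.6% of windows. The GC content of the printed windows was 56.3% for SUV39H1, 76.3% for SUV39H2 and 60.0% for CBX3, against a median of 58.7% over all windows. It was 72.0% in the other SUV39H1 window, and which SUV39H1 start was used in these cells was not tested. The 3 windows shared no word of the 5 kinds searched. A word match is a description of these letters only.

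Both CBX3 and PPHLN1 share their start region with a gene on the other strand. HNRNPA2B1, which encodes an RNA-binding protein and starts 367 bases inside CBX3 on the minus strand, was at 81.4, 40.5 and 201 CPM in WT libraries and 169, 345 and 163 CPM in KO libraries. WT 2 was lowest for it too, and the groups overlapped (log2 fold change 1.07, SE of 0.54, edgeR adjusted p = 0.387, and 0.68 without WT 2). Only 41.9% of its fragments were in the gene row. YAF2, a Polycomb-associated zinc finger protein whose start lies 98 bases from that of PPHLN1, was at 6.82 ± 1.26 CPM in WT libraries and 5.53 ± 2.62 CPM in KO libraries (SD, n = 3 each, log2 fold change -0.30, SE of 0.38, edgeR adjusted p = 0.721), on the other side of 0 from PPHLN1. The YAF2 gene row held 53.3% of its fragments. The RefSeq windows of PPHLN1 lie at other starts, and which start was used in these cells was not tested.

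Levels between genes were compared in TPM, which accounts for length. By gene rows CBX3 was highest, at 68.5 ± 25.9 TPM in WT and 90.0 ± 13.7 TPM in the KO (SD, n = 3 each), above every other gene in 6 of 6 libraries. TASOR, TRIM28, PPHLN1, ATF7IP and SETDB1 followed, with means over the 6 libraries from 18.4 down to 11.5 TPM. Each of these overlapped its neighbour in that order. SUV39H2, SUV39H1, MORC2 and MPHOSPH8 formed a lower group, from 4.59 ± 2.04 down to 3.40 ± 0.961 TPM (SD, n = 6), also without a clear order among neighbours, but below SETDB1 in 6 of 6 libraries for SUV39H2.

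Adding the transcript rows moved TRIM28 to the top, at 144 ± 52.2 TPM in WT and 182 ± 10.0 TPM in the KO, above CBX3 in 6 of 6 libraries. That is 10.2-fold its gene-row TPM, against 3.90-fold in fragments, because the added models are short: TRIM28-207 is listed at 1552 bases and TRIM28-204 at 861 bases. SUV39H2 had a mean of 13.6 TPM, 2.96-fold that of its gene row, and SUV39H1, with nearly all fragments in its gene row, became the lowest. The order of the silencing genes in these cells thus depends on the rows counted.

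Ratios within a library do not depend on the scaling of libraries, and 6 were compared by exact two-sided permutation, with 0.1 the smallest p possible. SUV39H1 to SUV39H2 in TPM was 1.05, 1.90 and 1.07 in WT 1, 2 and 3 and 0.984, 0.712 and 0.845 in KO 1, 2 and 3. Every KO library was below every WT library by gene rows, with a log2 difference of -0.61 (exact permutation p = 0.1, 0.6 after adjustment over the 6 ratios, where the others were at 0.84 to 0.9). Without WT 2 the difference was -0.33. With joined rows the ratios were 0.435, 0.456 and 0.328 in WT and 0.330, 0.257 and 0.297 in the KO, where WT 3 and KO 1 crossed (log2 difference -0.46, exact permutation p = 0.2).

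The HUSH subunits were not at equal RNA levels. TASOR to MPHOSPH8 was 7.82, 3.28 and 5.76 in WT and 6.86, 5.33 and 4.99 in the KO, and PPHLN1 to MPHOSPH8 was 5.19, 1.90 and 5.39 in WT and 6.20, 4.45 and 5.64 in the KO. In both, WT 2 was lowest and the groups overlapped (log2 differences 0.10 and 0.52, exact permutation p = 0.9 and 0.5). Without WT 2 these differences were -0.24 and 0.024. SETDB1 to ATF7IP lay near 1, between 0.617 (WT 3) and 1.06 (WT 1), with a log2 difference of -0.15 (exact permutation p = 0.6) that was -0.05 without WT 2 and 0.0013 without WT 1. TRIM28 to SETDB1 ran from 0.895 in WT 2 to 2.01 in WT 3 by gene rows (log2 difference 0.16, exact permutation p = 0.7, and -0.11 without WT 2), and from 6.55 to 12.5 with joined rows. CBX3 to CBX5, the HP1 gamma to HP1 alpha ratio, was 3.66, 2.48 and 2.77 in WT and 3.68, 2.96 and 3.03 in the KO (log2 difference 0.13, exact permutation p = 0.5, and 0.013 without WT 2).

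Partners of the pathway were described by counts, beside the same background of 0.727% called. Of 22 H3K9 and heterochromatin partners, 0 rose and 0 fell, 14 had a positive log2 fold change, and the median was 0.10 (0.03 without WT 2). SMCHD1, which silences the inactive X chromosome and other loci, had the smallest p on the positive side, at 52.0 ± 17.2 CPM in WT libraries and 91.5 ± 11.0 CPM in KO libraries (log2 fold change 0.81, SE of 0.24, edgeR adjusted p = 0.193). CBX1 (HP1 beta) had a log2 fold change of 0.45 (SE of 0.21, and 0.28 without WT 2), the scale of each single value with an SE from here on. On the negative side ATRX, a chromatin remodeller of heterochromatin, was at -0.53 (SE of 0.22) and MORC4, a relative of MORC2, at -0.48 (SE of 0.19).

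Of 10 H3K9 demethylases, 0 passed, 4 were positive and 6 negative, with a median of -0.27 (-0.17 without WT 2). KDM7A was at 62.3 ± 26.0 CPM in WT libraries and 32.2 ± 5.01 CPM in KO libraries, with overlapping groups, and did not pass (log2 fold change -0.95, SE of 0.32, edgeR adjusted p = 0.240). PHF8 was at -0.40 (SE of 0.21), KDM4A at 0.17 (SE of 0.15) and KDM3B at 0.07 (SE of 0.15, and 0.03 without WT 2). Of 16 genes of SUMO conjugation, which modifies TRIM28 and so recruits SETDB1, 0 passed and 14 were positive, with a median of 0.28 (0.23 without WT 2). SUMO3 was at 0.56 (SE of 0.24, edgeR adjusted p = 0.329, and 0.33 without WT 2), while the protease SENP7 was at -0.38 (SE of 0.22) and the ligase PIAS4 at -0.16 (SE of 0.21). WT 2 was lowest for 10 of these 16 genes.

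Other silencing systems were described for context. Of 14 tested DNA methylation genes 0 passed and 10 were positive (median 0.09, 0.05 without WT 2), with DNMT1 at 0.40 (SE of 0.36, and 0.09 without WT 2) and UHRF1 at 0.99 (SE of 0.63, and 0.53 without WT 2). Of 15 Polycomb and deacetylase genes 0 passed and 10 were positive (median 0.11, 0.02 without WT 2), with RBBP4 at 0.60 (SE of 0.23) and RBBP7 at 0.37 (SE of 0.22, and 0.19 without WT 2). The difference between these lists and the 10 silencing genes was not tested.

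Genes of classes that this machinery is known to silence were described in the same way. Of 14 genes derived from retroviruses or LINE-1, 6 were expressed enough to test and 0 passed (median -0.05, and 0.18 without WT 2), and ERVFRD-1, ERVH48-1 and ERVV-1 were at 0 in all libraries. L1TD1 was at 0.601 ± 0.0896 CPM in WT libraries and 0.795 ± 0.283 CPM in KO libraries, ERVW-1 at 0.543 ± 0.231 and 0.570 ± 0.147 CPM, PEG10 at 3.72 ± 1.97 and 2.45 ± 0.959 CPM, and ERVK13-1 at 0.533 ± 0.489 and 0.400 ± 0.693 CPM (SD, n = 3 each). The gene rows of ERVW-1 and ERVK13-1 held 29.4% and 17.2% of their fragments. Repeats that are not annotated genes were not analysed here. Of 17 germline genes 8 were at 0 in all libraries and 1 could be tested, TEX14, at -0.96 (SE of 0.37, edgeR adjusted p = 0.292).

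Of 10 tested imprinted genes 0 passed (median -0.10), with INPP5F at 0.75 (SE of 0.25), MCTS2 at 0.36 (SE of 0.55), CDKN1C at -1.52 (SE of 0.62, and -1.15 without WT 2) and NAP1L5 at -0.34 (SE of 0.27, and -0.52 without WT 2). CDKN1C was low, at 1.2 ± 0.62 CPM in WT libraries and 0.42 ± 0.28 CPM in KO libraries. Clustered protocadherins, which SETDB1 silences in neurons, had 26 positive values among 31 tested, with a median of 0.51 that stayed at 0.51 without WT 2, and 0 passed. PCDHB11 was at 11.1 ± 0.868 CPM in WT libraries and 19.9 ± 4.34 CPM in KO libraries (log2 fold change 0.84, SE of 0.22, edgeR adjusted p = 0.146). PCDHB8 was at 2.13 (SE of 0.58), from 0.391 ± 0.0763 CPM in WT to 1.74 ± 1.12 CPM in KO libraries. PCDHGC3 was at -2.33 (SE of 0.59), from 2.90 ± 2.19 to 0.574 ± 0.161 CPM, and PCDHGA4 at -0.61 (SE of 0.32). The clustered protocadherins summed to 151 to 172 CPM in WT libraries and 138, 245 and 218 CPM in KO 1, 2 and 3, so KO 1 lay below every WT library. Reads can be shared within these clusters, whose genes have near-identical exons. Of 378 numbered zinc finger genes tested, 0 rose and 1, ZNF93, fell, from 3.02 ± 0.670 to 0.654 ± 0.0446 CPM (log2 fold change -2.20, SE of 0.35, edgeR adjusted p = 0.0375, range 4.6e-04 to 0.212 over the alternatives). The median of these 378 was -0.07.

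The genes most like the 10 over the 6 libraries were found by the root mean square difference between centred log2 CPM and the mean profile of the 10, among 7568 genes. STRAP, which encodes an RNA-binding WD-repeat protein, was closest at 0.0245, followed by PPM1G (0.0446), a protein phosphatase, YWHAE (0.0454), a 14-3-3 protein, NPM1 (0.0470), nucleophosmin, and TTF1 (0.0486), a transcription termination factor of ribosomal genes. The median over the compared genes was 0.318. STRAP was at 105, 77.1 and 118 CPM in WT libraries and 132, 129 and 128 CPM in KO libraries (log2 fold change 0.37, SE of 0.19, edgeR adjusted p = 0.387), so it too was lowest in WT 2. The 10 genes themselves lay between 0.0786 and 0.724 from their own mean.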

How the data were processed

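RNA of 3 WT and 3 ZNFX1 KO samples was sequenced from stranded total RNA libraries, per the labels. The authors deposited estimated counts of fragments and TPM per gene row, made with Salmon per the labels' descriptions. FastQC, Trimmomatic and DESeq2 are also named in the submitters' processing notes, and no source used here gives the build or annotation release. Groups came from sample titles. Each file has 197169 rows, 62260 genes and 134909 transcripts, which hold 9.93% to 10.7% of the fragments. Columns of per-sample values not used: 0. Coordinates, gene types and the link of 103521 transcript rows to genes came from GENCODE 29 (GRCh38), symbols from a gene table, which named all 62260 genes, and promoter windows from RefSeq (GRCh38.p14), which matched 9 of the 10 genes.

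Estimated counts were rounded, filtered with filterByExpr (14166 genes, at least 99.8% of gene fragments), scaled by TMM (factors 0.958 to 1.04) and tested with edgeR 4.0.16 (quasi-likelihood, two-sided, R 4.3.3), genotype as the only term, Benjamini-Hochberg over all genes. SE is the log2 fold change over the square root of F, and intervals use the test's degrees of freedom. Log2 CPM used a prior count of 2. Alternatives used DESeq2 1.42.0, limma 3.58.1, other scalings and filters, TPM with pseudocounts of 1 and 0.1, an effective length offset, joined rows, protein-coding genes, a replicate block and leaving out each library. The fit over gene and transcript rows and that without WT 2 on joined rows were added after the data were seen. On simulated counts (13863 genes) for ZNFX1 KO against WT, the test recovered 35% of genes changed 2-fold and 95% of those changed 4-fold, with 12 false among 142 calls. The simulation drew each gene independently and set no library apart as WT 2 is, so these rates may not hold for the real counts. Library pairs differed by at least 30.3 in chi-square per degree of freedom, so none was counted as a duplicate.

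The 10 genes and all lists were chosen with earlier results of these data known. The named genes were all 10, ZNFX1, divergent protein-coding neighbours within 1000 bases, the 5 most alike, and per pathway or target list the called genes or else the 2 smallest p in each direction. A gene that this rule names is not reported here. Context lists had at most their 2 most abundant genes named by rule. CD68 and ITGAX follow that rule. PECAM1, VWF, EMCN, CLDN5, MUC16, FOLR1, PAX8, CDH1, the gene WT1, PTPRC and the genes listed at 0 were named after their values were seen. So were the printed promoter windows and the motif words.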

Additional observations from a re-analysis of the deposited data

How the results depend on the processing

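Of the 10 genes, TASOR, MORC2, ATF7IP, TRIM28, SUV39H2 and CBX3 kept a positive log2 fold change and stayed uncalled in all 19 alternatives, and PPHLN1 stayed positive in all 19 and was called in 1. MPHOSPH8 ranged from -0.12 to 0.39, SETDB1 from -0.14 to 0.22 and SUV39H1 from -0.0048 to 0.67 when single libraries were left out. SETDB1 was also at -0.019 with library totals and -0.0039 with the effective length offset. The number of the 10 called was 0 to 1 over the libraries left out, and 0 in the other alternatives. ZNFX1 ranged from -1.03 to -0.53 over the libraries left out and was called without WT 3 (-1.01). Over all genes, 103 were called, against 602 with no filter, 579 with DESeq2, 48 and 66 by limma on TPM with pseudocounts of 1 and 0.1, and 187 with joined rows. Leaving out single libraries gave 2 (without KO 2) to 1315 (without WT 3), with 24 without WT 1, 57 without WT 2 and 7 without KO 3. Where not given by fewer samples, the cause was not tested. With the replicate block 14 genes and 0 of the 10 were called. Same-numbered libraries correlated at 0.13, -0.04 and 0.0069 in their deviations from group means, so the numbers were not taken to pair samples. By that correlation WT 2 was closest to KO 3, not KO 2. Of the 6 ratios, SUV39H1/SUV39H2 ranged from -0.76 to -0.33, PPHLN1/MPHOSPH8 from 0.024 to 0.78 and CBX3/CBX5 from 0.013 to 0.29 over the libraries left out, while TASOR/MPHOSPH8 (-0.24 to 0.39), SETDB1/ATF7IP (-0.39 to 0.0013) and TRIM28/SETDB1 (-0.11 to 0.47) took both signs. SUV39H2 in WT 2 rests on 41.6 fragments.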
